A study of Danio rerio with 15 samples.

Results

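The transcripts described here stood higher in zebrafish larvae exposed to tefluthrin than in untreated larvae, and by nearly the same amount at both concentrations tested. They number 200 of the 64995 transcripts in the deposited files. They were selected on the measured values themselves. Their rise over control, the closeness of the tefluthrin groups and the capped rise at the higher acetochlor concentration are therefore descriptions, from which nothing is tested. Wild-type (WT) NHGRI-1 zebrafish were used; each of the 15 libraries held RNA from a pool of whole larvae collected 72 hours post fertilisation (hpf). There were 5 groups of 3 libraries. Exposure lasted from 48 to 72 hpf, either to tefluthrin, at 60 nM or at 2.3 µM, or to acetochlor, at 780 nM or at 7.8 µM, and the fifth group was an untreated control. The higher tefluthrin concentration was 38.3 times the lower one; the headers of that group's files give its concentration in nanomolar, whereas the labels give micromolar, which is used here. Each library is a pool of larvae, and the control is labelled untreated, with no mention of a solvent.

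Tefluthrin is a pyrethroid insecticide. Pyrethroids bind the voltage-gated sodium channels of nerve cells and delay their closing, which prolongs the inward current and makes neurons fire repeatedly. Acetochlor is a chloroacetanilide herbicide that blocks the elongation of very-long-chain fatty acids in plants. No tefluthrin concentration between that of the control and 60 nM was measured, so the files hold no value from the interval in which these transcripts left the control level. The files name each transcript by its Ensembl identifier only and pair none of them with a gene; of the 64995 identifiers, 0 occur in the gene tables used for names. Members are therefore ordered by the size of their rise and described by their place in that order, only the first 2 by identifier, and no function is given to any of them. For the same reason the tissue label could not be checked against marker genes.

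Levels are given as scaled counts, that is, estimated counts divided by a size factor of the library (0.831 to 1.28) obtained from the median of its ratios to the average library. Differences are on the scale of log2(group mean + 5). The rule kept 23895 transcripts with a control mean of at most 10000 and a highest group mean of at least 50. Of these, 1185 were at least 0.8 above control at both tefluthrin concentrations. In 943 of the 1185 every tefluthrin library also lay above every control library, an ordering that 14.2% of the 23895 transcripts showed. Requiring acetochlor 7.8 µM to be less than 0.4 above control left 711. Among the 711, the tefluthrin groups were within 0.2 of each other in 233, the 2.3 µM group was higher by more in 296, and it was lower by more in 182. The 200 with the largest rise, the mean of both tefluthrin differences from control, are the members, and 33 others passed but were not taken.

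The limits cut through a continuous range of values. The member at place 200 had a rise of 0.91, and the first transcript beyond it, at place 201, also had 0.91. The nearest values inside and outside the limit on the difference between concentrations were both 0.20 in size, and those at the limit for acetochlor were 0.40 and 0.41. For the smaller of both tefluthrin differences they were both 0.80. At place 200, scaled counts were 159, 222 and 156 in control, 350, 363 and 296 at 60 nM, and 244, 342 and 452 at 2.3 µM. At place 201 they were 62.8, 48.9 and 64.2 in control, 122, 118 and 125 at 60 nM, and 118, 106 and 98.3 at 2.3 µM. In both, the lowest tefluthrin library lay above the highest control library.

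The first place was held by ENSDART00000146845.2, a transcript close to the detection floor in untreated larvae. Its scaled counts were 0, 0 and 5.48 in control, from 7 counts in all. They were 227, 197 and 214 at tefluthrin 60 nM and 154, 221 and 191 at 2.3 µM. The tefluthrin libraries were all far above the controls and their ranges overlapped between concentrations. The acetochlor 780 nM libraries held 0.992, 7.24 and 0, and at 7.8 µM it was listed at 0 in all 3 libraries. Its rise was 4.91. Where a library lists 0, up to 3 counts remain possible, which is 2.35 to 3.61 scaled counts depending on the library; this covers counting error only, since reads are not known to be independent molecules.

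ENSDART00000141904.3, at place 2, was by contrast a moderately abundant transcript before exposure. It had scaled counts of 809, 741 and 979 in control, 14750, 14733 and 16770 at tefluthrin 60 nM, and 12856, 12904 and 19159.6 at 2.3 µM. The group means were 843 ± 123 (SD, n = 3), 15418 ± 1171 and 14973 ± 3625, which is 18.3 and 17.8 times the control mean. The concentrations differed by -0.04 on the log2 scale, and the spread among the 2.3 µM libraries exceeded the gap between the groups. With acetochlor it had 1129, 1164 and 885 at 780 nM and 928, 930 and 562 at 7.8 µM. All its estimates were fractional, as is usual where reads are divided between similar transcripts.

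**Figure D1:**
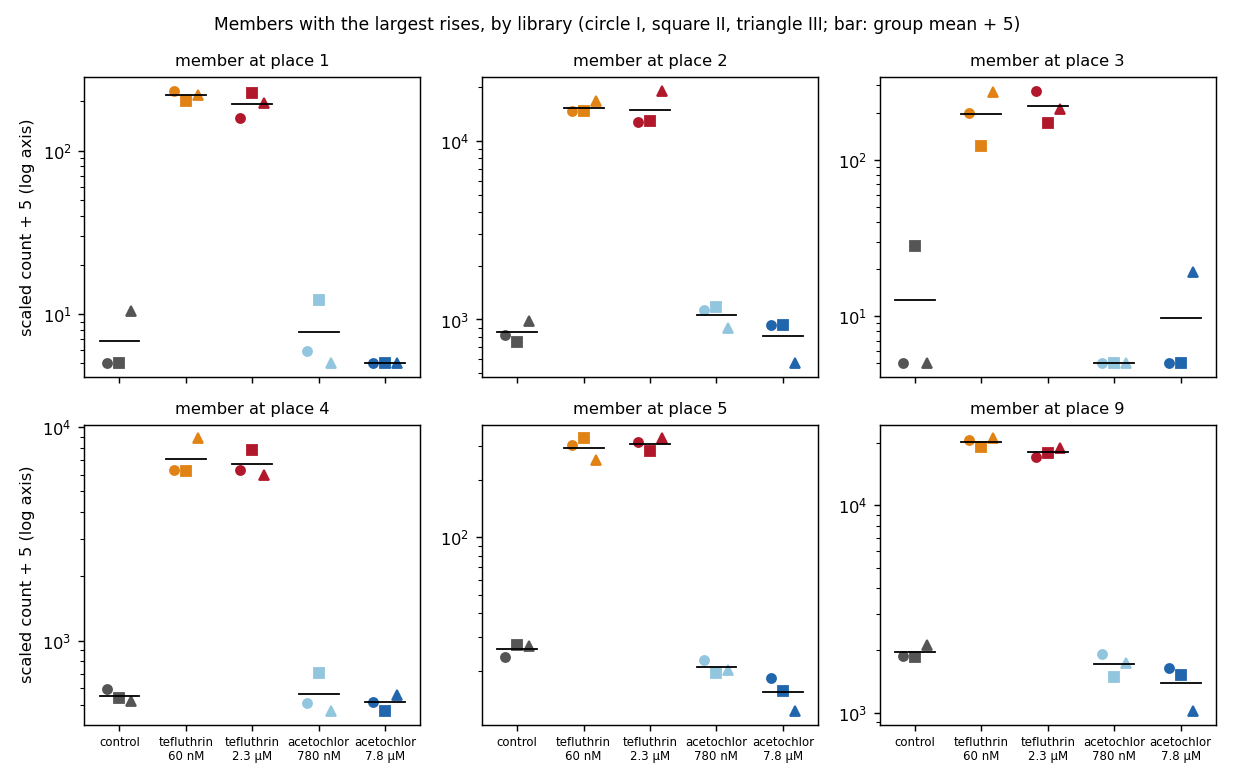
Scaled count + 5 (log axis) in each of the 15 libraries for the members at places 1, 2, 3, 4, 5 and 9 by rise; symbols are replicates and bars are group means + 5. In each panel the 6 tefluthrin libraries lie above the 9 control and acetochlor libraries, and the ranges at 60 nM and 2.3 µM overlap in all panels but the last, where 60 nM is higher.

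The next places held both scarce and abundant transcripts. Place 3 was at 0 in control I and III and at 23.3 in control II. It reached 194, 117 and 265 at 60 nM and 271, 167 and 205 at 2.3 µM. It was listed at 0 in all 3 libraries at acetochlor 780 nM and in 2 of 3 at 7.8 µM. Place 4 had 590, 534 and 515 in control, 6291, 6215 and 8863 at 60 nM, and 6290, 7836 and 5936 at 2.3 µM. That is 13.0 and 12.2 times the control mean. Its mean with acetochlor was 555 ± 126 (SD, n = 3) at 780 nM and 509 ± 43.5 at 7.8 µM, each within 1 SD of its control mean of 546 ± 38.8.

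The member at place 5 was scarce and tightly replicated. Its scaled counts were 18.6, 22.5 and 21.9 in control, 297, 324 and 247 at 60 nM, and 308, 278 and 324 at 2.3 µM. The acetochlor values were 17.9, 14.5 and 15.1 at 780 nM and 13.3, 10.8 and 7.34 at 7.8 µM, so that each acetochlor library lay below each control library. Its difference from control at acetochlor 7.8 µM was -0.75, the lowest among the members. Place 6 had 15.3, 17.5 and 13.6 in control, 229, 185 and 201 at 60 nM, and 171, 251 and 254 at 2.3 µM. In the acetochlor 780 nM libraries it had 31.7, 29.4 and 22.1, above every control library.

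Place 9 was the most abundant of the 200 at tefluthrin 60 nM. It had 1873, 1861 and 2112 in control, 20613, 19180 and 21055 at 60 nM, and 17128, 17915 and 18977 at 2.3 µM. The values at 2.3 µM were all below those at 60 nM, and the difference of -0.17 lies near the edge of what the rule admitted. The acetochlor libraries held 1916, 1480 and 1742 at 780 nM and 1637, 1509 and 1015 at 7.8 µM. Of all scaled counts that the members gained with tefluthrin, averaged over both concentrations, this member alone supplied 10.8%. Place 2 supplied 9.02%, place 8 supplied 4.73% and place 4 supplied 4.0%.

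At least 50% of the added counts came from 11 members, whereas the 100 members that added least supplied 5.96%. The 200 together held 0.419% ± 0.020 of the counts of a control library (SD, n = 3), 1.24% ± 0.018 at tefluthrin 60 nM and 1.1% ± 0.048 at 2.3 µM. They held 0.437% ± 0.0055 at acetochlor 780 nM and 0.465% ± 0.019 at 7.8 µM. These shares are taken of each library's own total, so the 2.3 µM share is lower than the 60 nM share although the scaled counts of single members were matched by the rule.

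The rises became smaller quickly along the order. The first 10 members had 9.24 times the control level or more at both concentrations, and places 11 to 27 had between 3.94 and 13.7 times. Places 28 to 100 stood at 2.20 to 4.77 times control and places 101 to 200 at 1.79 to 2.59 times. The median rise over the 200 was 1.18, with quartiles at 1.04 and 1.63. A rise of at least 2 was seen in 27 members, between 1 and 2 in 139, and under 1 in 34. In 71 members the lowest tefluthrin library exceeded the highest control library more than 2 times. In 182 members the 6 tefluthrin libraries lay above all 9 other libraries. The rule had already placed every tefluthrin library above every control library and capped the group mean at the higher acetochlor concentration. Much of this ordering was therefore fixed by the choice of members. The shares over all transcripts within the level limits were not computed for the 71 and the 182, so nothing is read from these counts.

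Large rises were found at low and at high control levels. Of the members, 52 had a control mean under 50 scaled counts, with a median rise of 1.48. The 73 with a control mean of 50 to 200 had a median of 1.13, the 51 at 200 to 1000 had 1.12, and the 24 at 1000 or more had 1.11. The highest rise in these bands was 4.91, 2.66, 4.16 and 3.29, in the same order. The members made up 2.10%, 0.715%, 0.573% and 1.04% of all transcripts within the level limits in these bands. The pseudocount of 5 reduces rises in the lowest band, and transcripts with no group mean of at least 50 were not eligible, which sets a minimum ratio for a member with a control mean under 50. The control mean over all members ranged from 1.83 to 5521, with a median of 122 against 180 over the 23895 transcripts within the level limits.

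**Figure D2:**
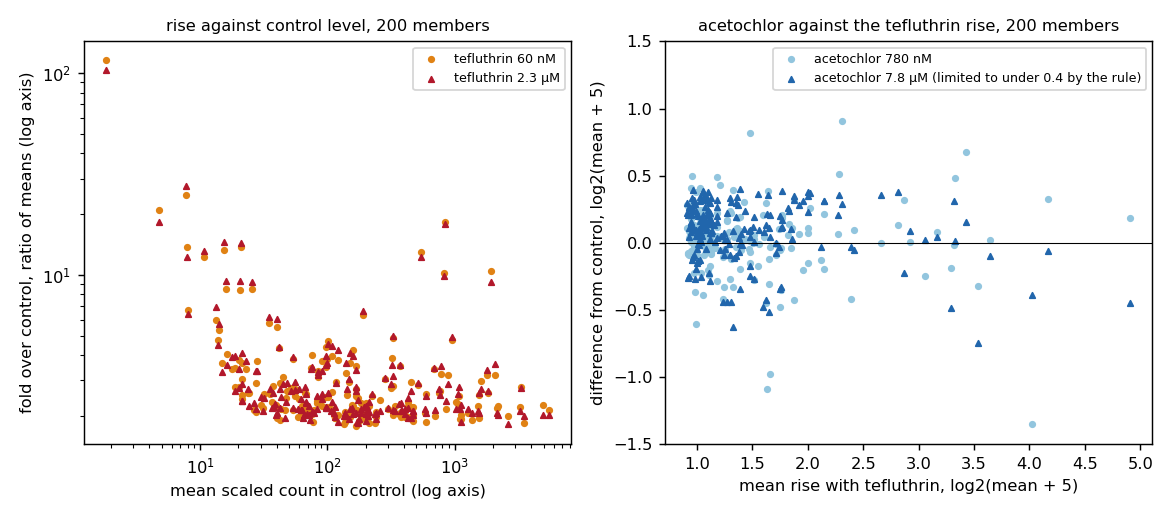
Left, ratio of tefluthrin to control mean against the control mean for the 200 members, both axes log; right, difference of each acetochlor group from control against the mean tefluthrin rise, both as log2(mean + 5). Points of both tefluthrin concentrations lie close together at each control level, and the acetochlor 780 nM points scatter around 0 between -1.35 and 0.91, with no member at 7.8 µM above 0.40 because of the rule.

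Over the 200 members, library medians within a group differed little, except at acetochlor 7.8 µM. Relative to the mean of the control libraries, the median member was at 1.23, 1.24 and 1.26 in the libraries at 60 nM and at 1.28, 1.21 and 1.28 in those at 2.3 µM. The control libraries lay at -0.04, 0.01 and 0.04. Medians at acetochlor 780 nM were 0.01, 0.05 and 0.02. At acetochlor 7.8 µM replicates I and II were both at 0.17 and replicate III was at -0.01. Over all 23895 transcripts within the level limits, every library median was between -0.01 and 0.01. The pools are bulk samples, so more cells of a type and more RNA per cell cannot be told apart.

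**Figure D3:**
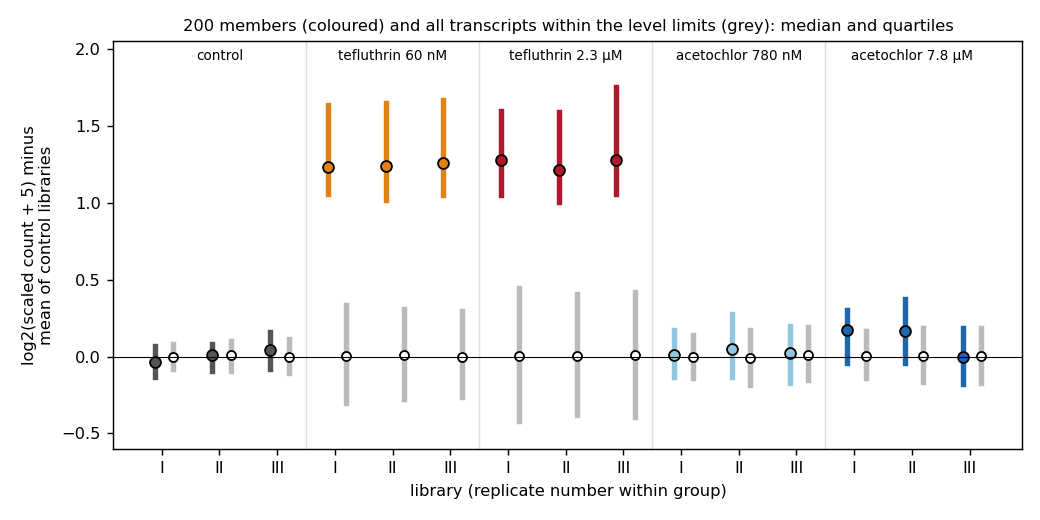
Median (circle) and quartiles (bar) of log2(scaled count + 5) minus the mean of the control libraries, by library, for the 200 members (coloured) and for all 23895 transcripts within the level limits (grey). The member medians sit between 1.21 and 1.28 in the 6 tefluthrin libraries and between -0.04 and 0.17 in the other 9.

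The difference between the concentrations ran from -0.20 to 0.20, as the rule set, with a median of 0.02. It was above 0 in 109 members, below 0 in 91, and within 0.1 of 0 in 104. Whether the groups are equal depends on the scaling. When counts were scaled by library totals alone, the median of all transcripts within the level limits shifted by -0.15 between the concentrations, the member median became -0.13, and 114 of the 200 were still chosen. With TMM scaling, edgeR's trimmed mean of M values, the member median was 0.01 and 196 were chosen again. A scaling shifts all transcripts of a library alike, so these values carry no separate information on how close the concentrations were. Over the members, the coefficient of variation had a median of 11.5% among control libraries, 10.5% at 60 nM and 11.9% at 2.3 µM, against 10.3%, 10.7% and 11.3% over all transcripts within the level limits. At acetochlor 780 nM it was 14.6% against 14.0%, and at 7.8 µM it was 15.3% against 11.6%. The rule used the control, tefluthrin and acetochlor 7.8 µM libraries, and its separation of tefluthrin from control also limited their spread. Nothing is therefore read from these gaps.

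The same measure was then taken in libraries that had no part in the choice. The rule was applied without the libraries of 1 replicate number in every group, and the 200 transcripts chosen were read in the libraries left out. Each choice gave its own set of 200, of which 132, 135 and 116, without replicates I, II and III, were among the members. Chosen without replicate I, 145 of 200 (72.5%) were at least 0.8 above control I in both tefluthrin I libraries, against 5.87% of all transcripts within the level limits. Without replicate II the count was 150 (75%), against 6.3%, and without replicate III it was 126 (63%), against 4.69%. The median differences in the libraries left out were 1.26, 1.18 and 1.1 at 60 nM and 1.25, 1.12 and 1.14 at 2.3 µM. In the libraries used for the choice they were 1.16, 1.22 and 1.15 at 60 nM and 1.16, 1.21 and 1.14 at 2.3 µM. In the libraries left out, both tefluthrin libraries lay above control in 192, 194 and 194 of the 200. The share over all transcripts was not computed for a difference above 0, so nothing is read from these last counts.

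Closeness of the concentrations was read in the same way. In the libraries left out, the median difference between 2.3 µM and 60 nM was 0.00, 0.00 and 0.04 for replicates I, II and III. The median of group means over all transcripts within the level limits was 0.00 too, so these medians alone do not show closeness. Single libraries scattered more widely than the group means: 94, 106 and 86 of the 200 lay within 0.2 of each other (47%, 53% and 43%), against 29.7%, 33.3% and 33.1% of all transcripts. Quartiles were -0.24 and 0.20 for replicate I, -0.15 and 0.21 for II, and -0.20 and 0.28 for III. Over all transcripts they were -0.36 and 0.37, -0.33 and 0.32, and -0.34 and 0.31, in the same order. No share over transcripts of like level was computed. The members' median level was 337 at 60 nM and 324 at 2.3 µM, against 184 and 183 over all transcripts within the level limits. How far these gaps depend on level was not tested. For each replicate left out, 3 of the 200 were listed at 0 in a tefluthrin library left out.

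Transcripts that met the other limits but were higher at 2.3 µM by over 0.2 mostly had the same order in the libraries left out, with a difference above 0 in 285 of 315, 287 of 320 and 264 of 290. Their median difference there was 0.67, 0.62 and 0.68 for replicates I, II and III. Those lower by over 0.2 had medians of -0.65, -0.43 and -0.44, with a difference above 0 in 21 of 192, 22 of 202 and 29 of 149. The sets of 200 chosen without the same replicates had medians of 0.00, 0.00 and 0.04, between those of the neighbouring sets. Their difference was above 0 in 99, 103 and 111 of 200. These sets of 200 are not the members alone. The share above 0 over all transcripts was not computed. No p is given for these counts, since members are not replicates of a condition.

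**Figure D4:**
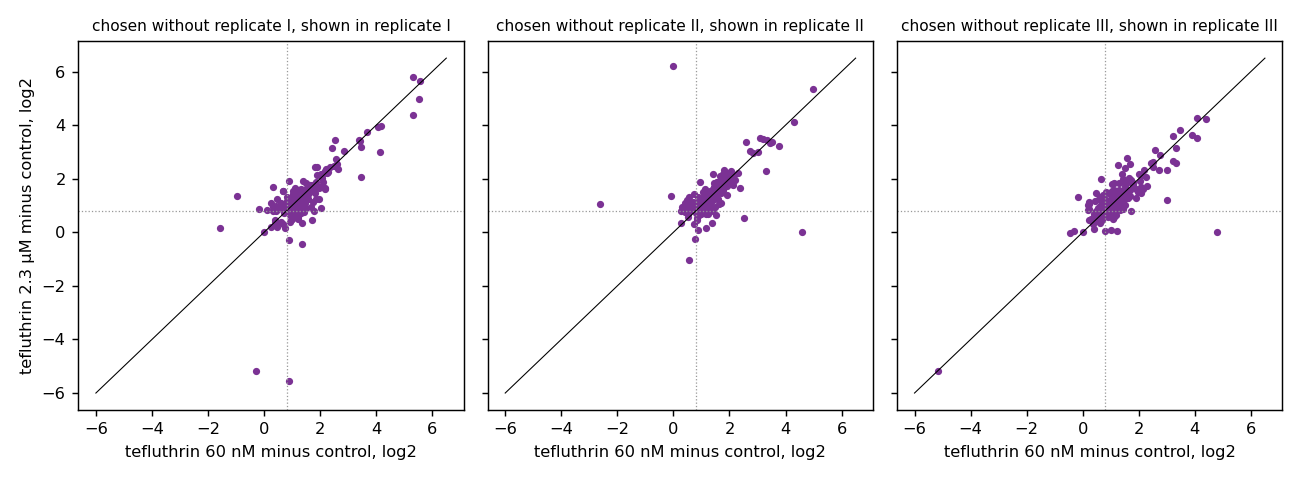
Difference of the tefluthrin 60 nM library (horizontal) and the 2.3 µM library (vertical) from the control library of 1 replicate number, as log2(scaled count + 5), for the 200 transcripts chosen without that replicate number; the line marks equal values and the dotted lines 0.8. In 145, 150 and 126 of the 200 both values are at least 0.8; 94, 106 and 86 lie within 0.2 of the line, and the others scatter to both sides of it.

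The acetochlor 780 nM libraries took no part in the choice beyond the limit on the highest group mean, and the test against control is the one comparison of the members with a group not used. The control libraries are shared with the rule. With the threshold for a call set at 0.05 on edgeR's Benjamini-Hochberg adjusted p, the quasi-likelihood test gave 0 calls among the 200 members and 0 among the 35865 transcripts tested (0%). At an unadjusted p-value under 0.05 there were 8 members (4%), 4 higher and 4 lower, against 909 transcripts (2.53%). That count was lowest with only these groups fitted, at 4 of 195 members against 671 of 32844 transcripts. It was highest without acetochlor 780 nM replicate III, at 13 of 200 members (8 higher) against 1594 of 37156 transcripts. DESeq2 and limma voom also called 0 members; DESeq2 called 103 transcripts in all and limma voom 0. The log2 fold change had a median of 0.05 over the members and 0.00 over all transcripts. A test that makes no call does not show that the levels are equal. Over all transcripts within the level limits, the median coefficient of variation was highest among the acetochlor 780 nM libraries, at 14.0%. It was 10.3% to 11.6% in the other groups.

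Group means at acetochlor 780 nM differed from control by a median of 0.05 over the members, with quartiles at -0.06 and 0.15 and a range from -1.35 to 0.91. They were above control in 124 members (62%) and below in 76, against 50.2% above over all transcripts within the level limits. Within 0.2 of control were 142 members (71%), against 78.9% of all. In 11 members (5.5%) every acetochlor 780 nM library lay above every control library, against 3.02% of all transcripts, and in 9 (4.5%) every one lay below, against 3.28%. The rule set the same controls below every tefluthrin library, which can favour low control readings and raise these differences. In sets chosen without replicates I, II and III, the median was 0.05, 0.09 and -0.10 in the libraries left out. No lean of the members is therefore read from these values.

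The members picked for the widest differences at 780 nM were place 3, described above, and places 18, 63 and 51. Their control means lay below the members' median of 122. Their SD pooled over the groups was 0.87 to 1.44 on the log2 scale, against a median of 0.209 over the members. Place 18 had 8.42, 9.56 and 22.2 in control and 9.57, 39.3 and 39.6 at acetochlor 780 nM, and the libraries at tefluthrin 2.3 µM ran from 34.4 to 190. The most variable member, at place 63, had 67.4, 55.3 and 11.6 in control and 193, 48.4 and 6.69 at acetochlor 780 nM. At place 51, control had 85.4, 106 and 60.5 and acetochlor 780 nM had 53.8, 56.6 and 0. At places 18, 63 and 51 the 780 nM libraries either overlapped the controls or differed among themselves by more than from them. By contrast, place 6 had separate groups, edgeR putting it 0.87 higher on the log2 scale (SE 0.322, adjusted p = 1). Place 19 had 362, 318 and 311 in control and 466, 449 and 501 at 780 nM, again without overlap, and edgeR put it 0.52 higher on the log2 scale (SE 0.152, adjusted p = 1).

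The least variable member, at place 150, is an extreme of the set. Its SD pooled over the groups was 0.051 on the log2 scale, against a median of 0.209 over the members. Its scaled counts were 303, 342 and 331 in control, 670, 653 and 642 at tefluthrin 60 nM, and 696, 682 and 701 at 2.3 µM. The ratios to control were 2.01 and 2.13. The 2.3 µM libraries all lay above the 60 nM libraries, by 0.08 on the log2 scale. With acetochlor it had 341, 341 and 364 at 780 nM and 333, 328 and 318 at 7.8 µM, near the controls. Its estimates were whole numbers in all 15 libraries, with no fraction left from a division of reads.

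The least abundant member at 60 nM, at place 97, had 22.9, 22.1 and 11.3 in control and 57.3, 46.6 and 52.3 at 60 nM. It had 57.4, 38.7 and 53.2 at 2.3 µM. Acetochlor libraries held 8.96, 16.7 and 12.6 at 780 nM and 11.6, 30.2 and 17.1 at 7.8 µM. The acetochlor libraries overlapped the controls at both concentrations.

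At acetochlor 7.8 µM the rule capped the members at under 0.4 above control, and their differences ran from -0.75 to 0.40 with a median of 0.11. Of the 200, 148 were above 0 and 71 were at 0.2 or more. For neither count was the share over all transcripts within the level limits computed. Placing the controls below every tefluthrin library can also raise differences from control, so nothing is read from either count. The rule had used the 7.8 µM libraries, so the comparison of acetochlor 7.8 µM with 780 nM is no independent test of the members, and nothing is read from their count. The same edgeR model gave 0 calls among the 200 members, against 24 of 35865 transcripts (0.0669%). At an unadjusted p-value under 0.05 there were 19 members (9.5%), 11 higher and 8 lower at 7.8 µM, against 4.65% of all transcripts. Without acetochlor 7.8 µM replicate III the count was 30, with 26 higher, against 2022 of 37304 transcripts. It was 24, with 21 higher, against 1761 of 35865 when library totals were the only scaling. With only these groups fitted it was 8 of 195 members, against 1058 of 32594 transcripts. DESeq2 called 1 member of 200, at place 130, against 214 of 35865 transcripts. With limma voom the calls were 0 members, against 23 of 35865 transcripts. Without acetochlor 7.8 µM replicate III edgeR called 1 member of 200, at place 101, against 66 of 37304 transcripts. The log2 fold change at place 101 was 0.59 in that fit, and with all libraries its edgeR adjusted p was 0.533. Nothing is read from these single calls.

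Place 130 had 2270, 2372 and 2072 at acetochlor 780 nM and 2814, 2753 and 2780.3 at 7.8 µM, with no overlap. In control it had 2143, 2489 and 1992, and with tefluthrin between 4215 and 5170 in the 6 libraries. The acetochlor 7.8 µM values stood above control. That their mean lay below the tefluthrin means was fixed by the rule for every member. Place 101 had 79.9, 75.4 and 81.4 at 780 nM and 123, 116 and 88.0 at 7.8 µM, where replicate III was the lowest, beside 100.3, 90.2 and 101 in control.

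A further 232 transcripts met the limits on level, rise and separation but were at least 0.4 above control at acetochlor 7.8 µM and so were not eligible. Their median difference there was 0.62 and their median rise with tefluthrin was 1.84. At acetochlor 780 nM, which did not enter that limit, their median difference was 0.16. It was above 0 in 183 of 232, against 50.2% of all transcripts within the level limits. The control libraries had helped to choose these transcripts and are also the reference here. Low control readings can therefore raise these values, and nothing is read from them. The members' 780 nM median of 0.05 lay close to the 0.05 of the transcripts higher at 2.3 µM than at 60 nM and to the -0.02 of those lower. These sets share their control libraries, and their differences were not tested.

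Reads divided between similar transcripts bear on most members. Whole estimates in every library were found in 51 members (25.5%), against 24.5% of all transcripts within the level limits. Among the first 50 places 8 had whole estimates in every library, and among the first 10 places 0 did. The others differed in how many estimates were fractional. With a listed 0 counted as whole, places 1 to 6 had whole estimates in 14, 0, 7, 0, 10 and 0 of the 15 libraries. The median rise was 1.11 in the 51 and 1.25 in the other 149. The largest rise with whole estimates, 3.06, was at place 11. That member had 8.85, 7.13 and 7.83 in control, 85.1, 127 and 113 at tefluthrin 60 nM, and 97.2, 118 and 75.5 at 2.3 µM, with 4.83 to 11.7 in the acetochlor libraries. At least 1 control library was at 0 in 4 members, all with a fractional estimate in some library, and 0 members were at 0 in all controls. The shares over all transcripts were not computed, so nothing is read from these counts. No member could be at 0 in a tefluthrin library, since the rule placed each of these above every control library. For a member with fractional estimates, a gain of its gene and a shift of reads from another transcript of the gene cannot be told apart from these files.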

How the data were processed

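Per the labels' protocols, RNA of pooled whole larvae was extracted with Trizol, purified on Qiagen RNeasy columns and made into poly(A)-selected libraries. The submitters' processing notes name Salmon 1.6.0, FastQC, MultiQC and the build GRCz11; the annotation release is not given in the sources used here. The deposited files hold estimated counts per transcript, unscaled, summing to 17354405 to 25191374 per library. The 15 pairs of libraries within groups differed by more than sampling noise, with chi-square per degree of freedom of 2.94 to 22.9, so each library is 1 replicate. The acetochlor 780 nM pairs had the highest values, 9.42, 11.1 and 22.9, and those of the other groups reached 7.56. The labels do not say whether replicates came from separate clutches or exposures, so p-values may measure technical spread only. Labels give no batch.

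The members were chosen, and the tests set, with earlier results of these data known. The planned gene lists and marker lists needed gene symbols and were not applied. Members described singly were taken by place in the rise and by extremes of level, of spread and of difference at acetochlor 780 nM; places 8, 11, 19, 47, 101 and 130 were added after their values were seen. Size factors for the rule used transcripts above 0 in every library. For tests, counts were rounded, filtered with filterByExpr and scaled by TMM, and edgeR 4.0.16 fitted 1 quasi-likelihood model, with no term besides group, to 35865 transcripts in the 15 libraries. Tests were two-sided, with Benjamini-Hochberg adjustment, and the standard error is the log2 fold change divided by the square root of F. Other versions were R 4.3.3, limma 3.58.1, DESeq2 1.42.0 and Python 3.11.15. The model and the rule were also run on simulated data, as a check of the code. For the rule, all simulated rises had the same size at both concentrations. That run therefore says nothing on transcripts near the limits. Alternatives were other scalings, pseudocounts of 1 and 20, whole estimates only, other tests and filters, a replicate block and leaving out libraries.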

Additional observations from a re-analysis of the deposited data

Results flagged for a closer look

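In 8 of the 20 members described singly, all 3 libraries of an acetochlor group lay below the mean of the control libraries. All 6 tefluthrin libraries lay above it, as the choice of members required. Some of the 20 were picked for a low level at acetochlor 780 nM or after their values were seen. The share over all transcripts was not computed, so nothing is read from this count. The differences between compounds were not tested, and none of the 8 members passed edgeR's test of acetochlor 780 nM against control. Values are means over libraries of log2(scaled count + 5) minus the control mean. At acetochlor 780 nM they were -0.83 at place 3, -0.32 at place 5, -0.19 at place 9, -0.25 at place 11, -1.73 at place 51, -0.40 at place 97 and -0.28 at place 101. At places 9 and 97 the 780 nM libraries overlapped the control libraries. At acetochlor 7.8 µM they were -0.36 at place 1, -0.76 at place 5 and -0.52 at place 9. With tefluthrin the same members stood at 5.0 (place 1), 4.49 (place 3), 3.53 (place 5), 3.29 (place 9), 3.04 (place 11), 1.64 (place 51), 1.26 (place 97) and 1.18 (place 101). The members at places 1 and 3 were at or near 0 counts in the acetochlor libraries and in most controls, so their negative values rest on 1 control library each.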

How the results depend on the processing

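TMM scaling and pseudocounts of 1 and 20 returned 196, 183 and 175 of the 200 members. Library totals as the only scaling returned 114 and moved the member median between tefluthrin concentrations to -0.13; with whole estimates only, 65 transcripts passed and 51 members remained. Leaving out libraries returned 116 to 190 members, the lowest without replicate III in every group, and 132 without replicate I. Leaving out 1 library at a time, 66 members were returned by all 12 fits. The member median of 0.05 at acetochlor 780 nM was 0.02 to 0.06 with 1 library left out or another scaling or pseudocount; for transcripts chosen without a replicate number, it was 0.05, 0.09 and, for replicate III, -0.10 in the libraries left out. At acetochlor 780 nM against control, DESeq2 called 103 transcripts, leaving out 1 library gave 0 to 3, and members called were 0 to 1; the 1, at place 47 (35.3, 0 and 0 scaled counts), was called without acetochlor 780 nM replicate I. Between the acetochlor concentrations the count of 24 became 214 with DESeq2, 2 with only those groups fitted, and 9 (without acetochlor 7.8 µM replicate II) to 66 (without replicate III); it was 15 without acetochlor 780 nM replicate II and 12 without acetochlor 7.8 µM replicate I. Members called were 1 with DESeq2 and 0 to 1 with a library left out (place 47 without acetochlor 780 nM replicate I and place 101 without acetochlor 7.8 µM replicate III). The replicate block gave 12 transcripts between the acetochlor concentrations and 0 at 780 nM against control, and 0 members in both; same-numbered control and acetochlor libraries did not deviate together (r from -0.0226 to 0.0228 over 6 pairs), so the numbers were not taken to pair these groups, and tefluthrin libraries were not examined for this. The causes of these changes were not tested. Low counts limit the scarcest members, whose levels rest on a few counts in control.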
